A study of Neurospora crassa with 2 samples.

Results

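The genes described here make, start or break down the reserve carbohydrates of Neurospora crassa, glycogen and trehalose. The list held 6 symbols (gsn, gnn, gpn, gbn, tre-1 and tps-1), and a gene was taken where its symbol stood in the gene column of the deposited table. Of the 10559 genes of the table, 2 met this directly, gnn (NCU06698) and tre-1 (NCU00943). The third, gsn (NCU06687), stands there as gsy-1, which RefSeq (assembly NC12) pairs with gsn as a synonym. The other 3 members, gpn, gbn and tps-1, matched no symbol or synonym and were not analysed here. The 3 genes found all passed the filter on low values, a mean of at least 1 RPKM over the time points. RPKM is the number of reads on a gene scaled by the length of its gene model and by the library total.

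Glycogen is a branched glucose polymer that fungi build during growth and draw on when glucose runs short. Its synthesis starts on glycogenin (gnn), which adds the first glucose units to itself, and is carried on by glycogen synthase (gsn) from UDP-glucose. A branching enzyme (gbn) adds the branches, and glycogen phosphorylase (gpn) releases the glucose units again. Trehalose is a disaccharide of glucose that accumulates in conidia and under stress, is made through trehalose-6-phosphate synthase (tps-1), and is split into glucose by trehalase (tre-1). In Neurospora, glycogen content and the gsn transcript are known to be under the influence of the circadian clock.

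The samples were hyphae of the wild type (WT), a strain that carries the bd allele per the study's methods, grown in liquid minimal medium with glucose and kept in constant darkness for 20 hr (DD20) or 12 hr (DD12). PolyA RNA was sequenced. The table holds 1 column per time point, whereas the study describes duplicate pooled RNA samples, so it is unclear whether a column is 1 library or a combination. There is therefore no replicate check, no p-value was computed, and a difference below compares the columns and not the conditions. The steps between RPKM values gave library totals of 29960356 reads at DD20 and 30712952 reads at DD12, a ratio of 0.975. From these the reads on a gene were recovered, with 95% intervals that cover counting error only, and in a bulk sample fewer cells expressing a gene and less RNA per cell cannot be told apart.

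The glycogen genes were abundant at both time points, and tre-1 was near the low end of expression. In the deposited values gsn was slightly higher at DD20, and so was gnn, whose direction turned round with centred or rescaled columns. For gsn, the level was 231 RPKM at DD20 (95% counting interval 227 to 236), from 20598 reads, and 194 RPKM at DD12 (190 to 198), from 17699 reads. It lay above 96.3% of the 7414 genes kept at DD20 and above 95.9% at DD12, so glycogen synthase was among the more abundant transcripts in both columns. The counting intervals of its levels did not overlap.

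For gnn, the level was 102 RPKM at DD20 (98.6 to 105), from 8031 reads, and 94.3 RPKM at DD12 (91.3 to 97.3), from 7631 reads. Glycogenin lay above 92.3% of the genes kept at DD20 and above 92.6% at DD12. Its intervals were also separate, by a narrow margin.

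For tre-1, the level was 1.59 RPKM at DD20 (1.21 to 2.04), from 120 reads, and 1.30 RPKM at DD12 (0.969 to 1.72), from 101 reads. This trehalase transcript lay above only 5.48% of the genes kept at DD20 and 2.81% at DD12. Its intervals overlapped, and at this depth a difference between the time points was not detectable.

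**Figure D1:**
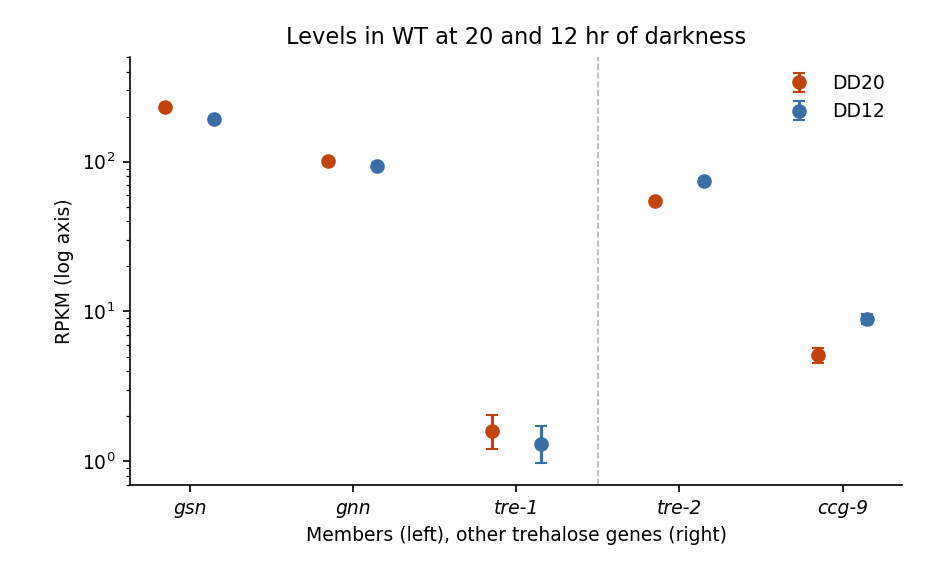
RPKM on a log axis for the members gsn, gnn and tre-1 and for 2 other trehalose genes, tre-2 and ccg-9, at DD20 (left point of each pair) and DD12 (right point). Bars are 95% counting intervals, smaller than the points for most genes. The glycogen genes stood between 94.3 and 231 RPKM, tre-1 between 1.30 and 1.59 RPKM, and both other trehalose genes were lower at DD20.

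Each gene's change is given on the log2(RPKM + 1) scale, as the value at DD20 minus the value at DD12 (the log2 ratio), where the added 1 shrinks the ratio of a low gene. It was 0.25 for gsn, 0.11 for gnn and 0.17 for tre-1. None of the 3 members reached a 2-fold difference, where 0.742% of the 7414 genes kept were 2-fold or more higher at DD20 and 2.33% were 2-fold or more lower. Of the genes past 2-fold, 24.1% were higher at DD20, against 10.8% with centred ratios. Without the added 1, the fold was 1.19 for gsn (counting interval 1.16 to 1.23), 1.08 for gnn (1.03 to 1.13) and 1.22 for tre-1 (0.824 to 1.81).

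The counting interval lay above 0 for gsn and gnn and spanned 0 for tre-1. Among the 5836 genes kept whose length was unique, it lay above 0 for 44.4% and below 0 for 18.5%, so an interval above 0 was common in these columns. Ranked by log2 ratio, gsn stood above 62.7% of the genes kept, tre-1 above 52.4% and gnn above 45.1%. All 3 members thus stood in the middle of the distribution, whose median was 0.15 and whose central 50% ran from -0.11 to 0.36. With log2 ratios centred on that median, the values were 0.10 for gsn, 0.019 for tre-1 and -0.041 for gnn, so the direction of gnn depended on the scaling of the columns.

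**Figure D2:**
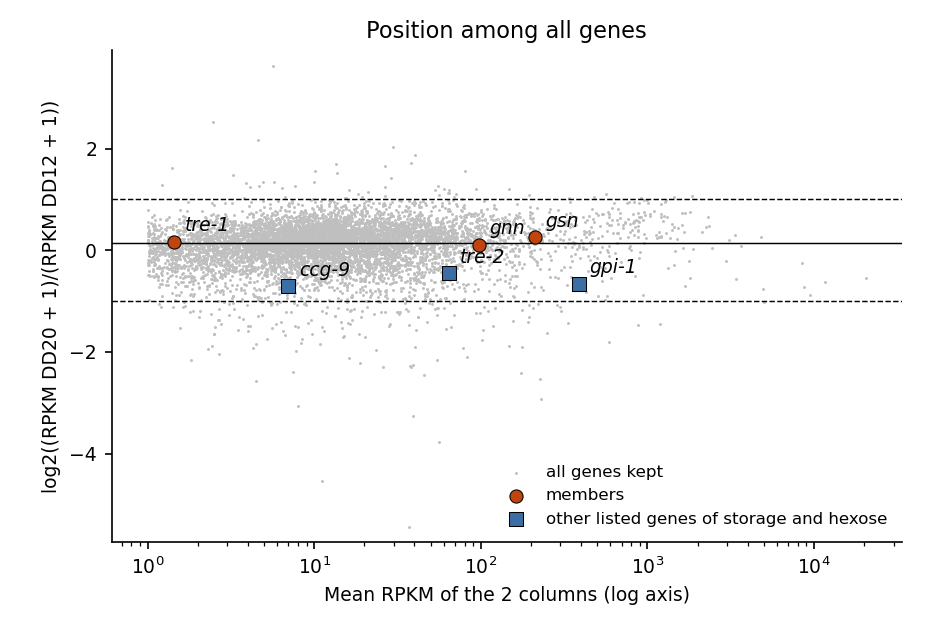
Log2 ratio of each gene against its mean RPKM on a log axis, for the 7414 genes kept (grey), the members gsn, gnn and tre-1 (circles) and tre-2, ccg-9 and gpi-1 (squares). The solid line is the median of all genes, 0.15, and the dashed lines mark 2-fold. The members lay close to the median, and the squares lay between it and the lower dashed line.

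Synthesis was set against breakdown by dividing the RPKM of genes within a column, which cancels the scaling of the column. As gpn and tps-1 were not matched, the planned ratios of glycogen synthase to phosphorylase and of trehalose-6-phosphate synthase to trehalase were not formed, and the pairs below were chosen after the values were seen. Among the 3 members found, only tre-1 breaks a reserve down, and it acts on trehalose and not on glycogen.

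The level of gsn was 146 times that of tre-1 at DD20 (113 to 191) and 149 times at DD12 (113 to 200). The log2 change of this ratio was -0.030, with an interval of -0.62 to 0.52. For gnn over tre-1 the ratio was 64.1 at DD20 (49.7 to 84.2) and 72.4 at DD12 (54.9 to 97.5), a log2 change of -0.17 with an interval of -0.76 to 0.38. Both intervals span 0, and the few reads on tre-1 set their width.

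Within glycogen synthesis, the level of gsn was 2.27 times that of gnn at DD20 (2.19 to 2.36) and 2.05 times at DD12 (1.98 to 2.14). The log2 change was 0.15, with an interval of 0.069 to 0.22 that lay above 0. The transcript of glycogen synthase was thus slightly higher relative to that of glycogenin at DD20, a comparison that no scaling of the columns can move.

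Of the list of 13 storage genes (the 6 members and 7 others), 5 were matched, the 3 members with tre-2 (NCU04221), a second trehalase, and ccg-9 (NCU09559), the clock-controlled trehalose synthase. The level of tre-2 was 54.5 RPKM at DD20, from 5340 reads, and 74.9 RPKM at DD12, from 7519 reads. The level of ccg-9 was 5.09 RPKM at DD20, from 675 reads, and 8.93 RPKM at DD12, from 1214 reads. Both were lower at DD20 and within 2-fold, with log2 ratios of -0.45 for tre-2 and -0.71 for ccg-9 and counting intervals below 0, whereas the glycogen genes had intervals above 0. Of the genes of unique length, 44.4% had an interval above 0 and 18.5% below 0.

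The median log2 ratio of the 5 storage genes was 0.11, against 0.15 for all genes kept. It does not describe the list, which held the 3 members above 0 and the other 2 genes below. Over all genes kept, 66.2% were above 0, and the interval of tre-1 spanned 0. With centred ratios gnn was -0.041 and tre-1 0.019, so the side on which gnn stood depended on the scaling of the columns. Ranked by log2 ratio, tre-2 stood above 9.54% of the genes kept and ccg-9 above 4.90%.

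Of the trehalase transcripts, tre-2 was the abundant one, at 34.3 times the level of tre-1 at DD20 (26.6 to 45.1) and 57.5 times at DD12 (43.6 to 77.4). The log2 change of this ratio was -0.74, with an interval of -1.33 to -0.19. The trehalose synthase ccg-9 stood at 0.0934 times the level of tre-2 at DD20 (0.0832 to 0.105) and 0.119 times at DD12 (0.109 to 0.130). This ratio of synthesis to breakdown changed by -0.35 on the log2 scale, with an interval of -0.56 to -0.14. Over tre-1, ccg-9 had a ratio of 3.21 at DD20 (2.43 to 4.30) and 6.86 at DD12 (5.14 to 9.33), a log2 change of -1.10 with an interval of -1.71 to -0.51. The ccg-9 transcript was therefore lower relative to either trehalase at DD20, and both of these intervals lay below 0. As tps-1 was not matched, these ratios do not describe trehalose synthesis as a whole. With a pseudocount of 5 the log2 change of ccg-9 was -0.53 over tre-1 and -0.041 over tre-2.

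**Figure D3:**
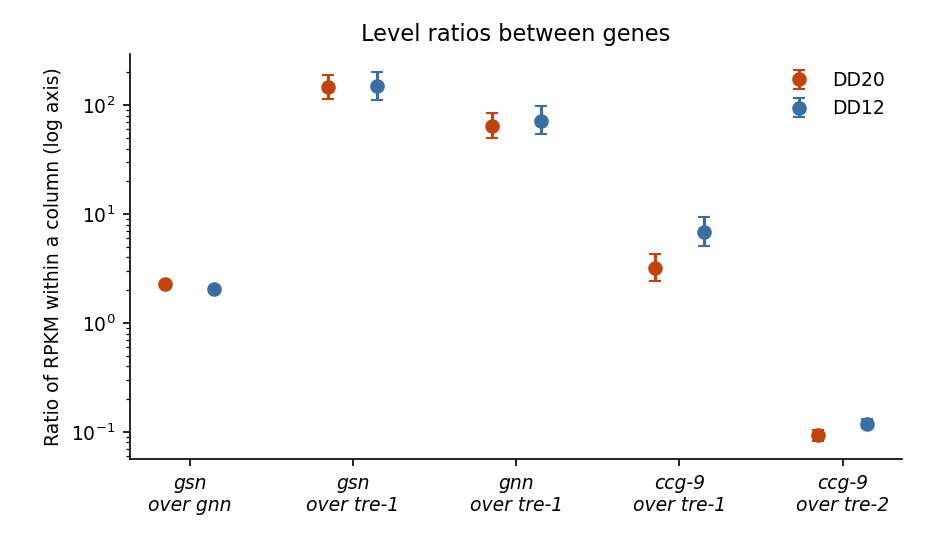
Ratio of the RPKM of 2 genes within a column, on a log axis, at DD20 (left point) and DD12 (right point), with 95% counting intervals. The gsn to tre-1 and gnn to tre-1 ratios overlapped between the time points, and the ccg-9 ratios were lower at DD20.

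The labels name hyphae, and trehalose is a reserve of conidia, so genes of conidiation were read beside the trehalose genes. Of 11 such symbols 9 were matched, and 7 of these passed the filter. The 7 included ccg-12, listed as cmt, and ccg-13, and the part of either gene in conidiation was not tested. Among the 7, 2 were 2-fold or more lower at DD20 and 0 were higher, and 6 of 7 had a log2 ratio below 0, with a median of -0.26 against 0.15 for all genes. The filter was passed by con-10 only through its DD12 level (2.31 RPKM, against 0.790 RPKM at DD20), which favours a ratio below 0. Of all genes kept, 2.33% were 2-fold or more lower at DD20 and 0.742% higher, and 66.2% had a log2 ratio above 0. The conidiation gene con-6 had 1.64 RPKM at DD20 and 6.43 RPKM at DD12, and ccg-13 had 19.4 RPKM at DD20 and 89.7 RPKM at DD12. The summed level of the 9 was 9365 RPKM at DD20 and 11232 RPKM at DD12, most of it from the hydrophobin gene eas. At a pseudocount of 5 the log2 ratio of con-6 was -0.78, within 2-fold, against -1.49 as reported. Of the 7, 3 had an interval below 0 (con-6, ccg-12 and ccg-13), against 18.5% of the genes of unique length. The interval of ccg-13 came from the shortest of 3 possible lengths, so ccg-13 is not among the genes of unique length. Another 3 had an interval that spanned 0 (fl, acon-3 and con-10), and that of eas was not resolved. The interval of con-10 came from the shortest of 4 possible lengths, which is the widest interval, and does not settle its direction. The part of these genes in the differences of tre-2 and ccg-9 was not tested.

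Around the reserves, gpi-1 (NCU07281), for the isomerase that converts glucose-6-phosphate and fructose-6-phosphate, was the 1 gene matched of 10 symbols for hexose phosphates. It had 303 RPKM at DD20, from 20857 reads, and 478 RPKM at DD12, from 33727 reads, a log2 ratio of -0.66 with a counting interval below 0. The high-affinity glucose transporter gene hgt-1 had 16.5 RPKM at DD20, from 1110 reads, and 10.8 RPKM at DD12, from 745 reads, a log2 ratio of 0.57 with an interval above 0. The sugar transporter gene rco-3, listed as sor-4, had 4.85 RPKM at DD20 and 4.68 RPKM at DD12, and its interval spanned 0.

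Of 17 symbols of regulators of carbon use, cAMP signalling and stress, 12 were matched, and 1 was 2-fold or more lower at DD20 and 0 were higher. The log2 ratio was above 0 for 8 and below 0 for 4, with a median of 0.12 against 0.15 for all genes. Over all genes kept, 66.2% had a log2 ratio above 0, 2.33% were 2-fold or more lower at DD20 and 0.742% higher. The gene past 2-fold was csp-1, for a clock-controlled transcriptional repressor of metabolic genes, with 42.3 RPKM at DD20, from 2880 reads, and 87.8 RPKM at DD12, from 6131 reads. Its log2 ratio of -1.04 lay at the threshold and was -0.97 with a pseudocount of 5.

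The carbon catabolite repressor gene cre-1 had 42.4 RPKM at DD20 and 51.7 RPKM at DD12, a log2 ratio of -0.28 with an interval below 0. The cAMP pathway acts on glycogen synthase and phosphorylase through protein kinase A. The adenylate cyclase gene cr-1 had a log2 ratio of 0.13, the kinase genes pkac-1 and pkac-2 had 0.11 and -0.37, and mcb, for the regulatory subunit, had 0.23. The interval of pkac-2 lay below 0 and those of the other 3 above 0, where 44.4% of the genes of unique length had an interval above 0 and 18.5% below. With centred ratios cr-1 was -0.022, pkac-1 -0.043, mcb 0.081 and pkac-2 -0.52, so the directions of cr-1 and pkac-1 depended on the scaling. The cAMP pathway genes and cre-1 lay within 2-fold, as did the ratios of the clock genes frq (0.29), wc-1 (0.023), wc-2 (-0.15) and frh (0.78).

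**Figure D4:**
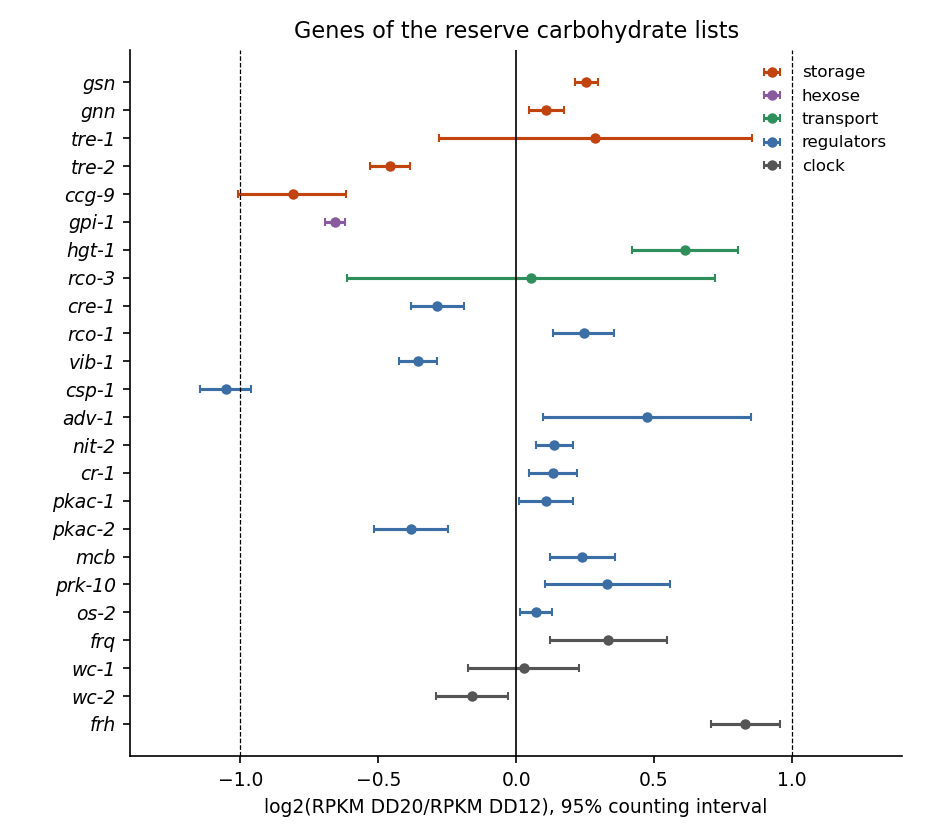
Log2 of RPKM at DD20 over RPKM at DD12, without a pseudocount, for the matched genes of the storage, hexose, transport, regulator and clock lists, with 95% counting intervals (from the shortest length that gives whole reads, which is the widest interval). The solid line marks 0 and the dashed lines 2-fold. The intervals of gsn and gnn lay above 0, that of tre-1 spanned 0, and csp-1 was the 1 gene past 2-fold.

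In RefSeq, gsn and gnn lie on the same chromosome with 9 genes between them. The 7 of these that passed the filter had log2 ratios of -0.96 to 0.42, with a median of -0.021, and 3 were above 0. For all genes kept the median was 0.15, and 66.2% were above 0. The directions of the 7 were mixed. The most abundant gene there was cox-6, for a subunit of cytochrome c oxidase, with 398 RPKM at DD20 and 333 RPKM at DD12 and a log2 ratio of 0.26.

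The gene models behind the RPKM values were 2974 nt for gsn, 2635 nt for gnn and 2524 nt for tre-1, each the 1 length that gave whole reads in both columns. They were shorter than the RefSeq spans by 1076 nt for gsn, 798 nt for gnn and 131 nt for tre-1, and whether the difference is intron was not tested. RefSeq lists 4 transcripts for gsn, 2 for gnn and 1 for tre-1, and 1 value per gene does not separate them.

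By the distance between log2(RPKM + 1) values at DD20 and DD12, the named gene nearest to gsn was vma-3, for a subunit of the vacuolar ATPase, with 227 RPKM at DD20 and 203 RPKM at DD12. Nearest to gnn was acu-5, for acetyl-CoA synthetase, with 103 RPKM at DD20 and 91.6 RPKM at DD12, and nearest to tre-1 was gh6-3, for a glycoside hydrolase, with 1.55 RPKM at DD20 and 1.29 RPKM at DD12. The distances, over 2 columns and 1038 genes, were 0.071, 0.047 and 0.021 in that order, and with 2 columns the likeness is mainly one of level.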

How the data were processed

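mRNA-seq of WT hyphae at DD20 and DD12 was analysed from 1 table. The deposited RPKM values were made by the authors as reads per gene scaled by gene length and library total. The submitters' processing notes name CASAVA 1.8 and HISAT, without roles, and the counting method, strand handling and genome build are not given in the sources used here, so no coordinates were reported. Samples were grouped by their labels.

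Python 3.11.15, pandas 2.3.3, numpy 2.4.6, scipy 1.17.1 and matplotlib 3.10.9 were used. The library total was the value at which genes with a model as long as the RefSeq span gave whole reads (1149 genes at DD20, 1156 at DD12). Gene length was any whole number from 30 nt to the span giving whole reads in both columns within 0.003 reads. Where several lengths did so, the interval was from the shortest, which is the widest. Of low genes with 1 to 10 reads, 58.7% had an even number at DD20 and 60.7% at DD12, so intervals were computed on reads divided by 2. These were exact Clopper-Pearson intervals for ratios, exact Poisson intervals for levels and exact conditional intervals for changes of ratios. Log2 ratios used a pseudocount of 1 RPKM. Genes were kept at a mean of 1 RPKM or more, and 2-fold was the threshold of size. Named were all members, all listed genes that act on the reserves or their precursors or passed 2-fold, and the nearest named gene to each member. Other genes within 2-fold were also named, among them cre-1, the cAMP pathway genes and the clock genes. The remaining regulators within 2-fold were not named. Members and lists were chosen with earlier results of these data known. Alternatives were other pseudocounts, filters and scalings.

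The steps were tested on simulated data, in which reads for the table's genes were drawn for both columns. The totals were recovered exactly, and 100% of 6800 unique lengths were right among 8611 genes tried. Of 170 genes changed 4-fold, 97.1% passed 2-fold, against 0% of 7207 unchanged genes. The simulation holds counting error only. It drew reads one by one and planted 4-fold changes, so it does not cover differences as small as those of the members.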

Additional observations from a re-analysis of the deposited data

How the results depend on the processing

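No paired analysis was possible because each time point has 1 column. Leaving out a replicate was likewise not possible. The number of members past 2-fold was 0 in each direction under all 6 alternatives. Scaling moved the glycogen genes beyond their counting intervals, and also tre-2, gpi-1 and csp-1. Between the scalings, ccg-9 moved in rescaled columns but not with centred ratios. Rescaling also raised all values before the pseudocount was added, so the pseudocount weighed less on low genes such as ccg-9. This effect was not separated from that of the scaling. The log2 ratios of tre-2, gpi-1, csp-1 and ccg-9 stayed below 0. With centred ratios gsn was 0.10 and gnn -0.041. With columns rescaled without the 10 most abundant genes gsn was 0.057 and gnn -0.088, where the median of all genes was -0.027 instead of 0.15. The sign of gnn therefore depends on the scaling, and that of gsn did not change in these settings. The change of ccg-9 over tre-2 was -0.041 with a pseudocount of 5 against -0.35, since the added value weighs on the low gene. With the same pseudocount the changes of gsn and gnn over tre-1 changed sign to 0.19 and 0.041, within their intervals. The log2 ratios of con-6 and csp-1, past 2-fold as reported, were -0.78 and -0.97 at that pseudocount. At a mean RPKM of at least 10, tre-1 and ccg-9 gave no value. Of 92 alternative values, 79 kept their count, kept the side of 0 of an interval's bound, or stayed within the counting interval as placed around the reported value on the log2(RPKM + 1) scale, 13 moved and 0 of the genes past 2-fold changed sign. With reads counted one by one, a setting added after the data were examined, the lower bound was 0.23 for gsn, 0.064 for gnn and -0.11 for tre-1. Depth limits tre-1 most, with 120 reads at DD20 and 101 at DD12.

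Numbers of genes past 2-fold over all genes also depended on the setting. The 55 genes higher at DD20 became 99 at a pseudocount of 0.1, 29 at one of 5, 31 after centring and 35 in rescaled columns. The 173 lower genes became 241 at a pseudocount of 0.1, 91 at one of 5, 256 after centring, 332 in rescaled columns and 102 at 10 RPKM or more, where fewer genes pass. In rescaled columns the pseudocount also weighed less on low genes, so those counts do not reflect scaling alone. Of the genes past 2-fold, 24.1% were higher at DD20, against 10.8% after centring and 9.54% in rescaled columns.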

Other observations

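The genes gla-1 and gla-2 are named for glucoamylase, which releases glucose from starch and related polymers, and were added after the table's symbols were seen. The level of gla-1 was 30.9 RPKM at DD20, from 3066 reads, and 26.4 RPKM at DD12, from 2682 reads, a log2 ratio of 0.22 with a counting interval of 0.12 to 0.34. That of gla-2 was 2.75 RPKM at DD20 and 2.82 RPKM at DD12, and its interval spanned 0.

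Relative to tre-2 and ccg-9, but not to tre-1, the gsn level was higher at DD20 beyond counting error. The level of gsn was 4.24 times that of tre-2 at DD20 (4.06 to 4.43) and 2.59 times at DD12 (2.49 to 2.69). It was 45.4 times that of ccg-9 at DD20 (40.7 to 50.8) and 21.7 times at DD12 (20.0 to 23.6). The log2 changes were 0.71 for gsn over tre-2 and 1.07 for gsn over ccg-9, and these pairs were chosen after the values were seen. As the interval of gsn lay above 0 and those of tre-2 and ccg-9 below 0, these ratios restate the values of the single genes and add no support.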
